A study of Mus musculus with 10 samples.

Results

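The immediate early genes are 9 genes of the mouse jejunum, chosen by name: Fos, Fosb, Jun, Junb, Egr1, Nr4a1, Ier2, Ier3 and Dusp1. All 9 were measured, each by 1 probe set, among 22180 genes tested. The series holds 10 Affymetrix whole-transcript arrays of RNA from a 3 cm piece of the middle of the small intestine, 5 labelled Fed Knockout and 5 labelled Fed Control. Knockout mice carried floxed Pcyt1a alleles (Pcyt1aLoxP/LoxP) and VilCreERT2, a Cre recombinase that tamoxifen activates and that the villin promoter confines largely to intestinal epithelium. Control mice carried Pcyt1aLoxP/LoxP without Cre. Pcyt1a encodes the enzyme of the rate-limiting step of phosphatidylcholine synthesis. Both groups were females of 10 to 12 weeks and both received tamoxifen for 5 days. Both ate high-fat food for 3 days, were fasted overnight and then had high-fat food again for 2 hours before the tissue was taken. No unfed group was analysed here, so the values show the refed state alone. Cre was present only in the knockouts, and its own effect cannot be told apart from that of Pcyt1a loss. The labels do not state that each array holds a separate animal, so p-values here reflect only sample-to-sample spread, part of which may be technical.

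Immediate early genes are transcribed within minutes of a stimulus from factors already present in the cell, and their transcripts are short-lived. Growth factors, feeding, stretch, injury and the handling of tissue are all known to induce them. Fos, Fosb, Jun and Junb encode subunits of AP-1, a dimeric transcription factor of the basic leucine zipper class, in which Fos proteins pair with Jun proteins. Egr1 encodes a zinc finger transcription factor and Nr4a1 an orphan nuclear receptor. Ier2 and Ier3 encode early response proteins, the second linked to cell survival under stress. Dusp1 encodes a phosphatase that switches off MAP kinases, the kinases that induce many of these genes. Since handling and refeeding can both induce them, they were compared between the 2 groups as a check on those steps.

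Promoter sequences of 7 members were found in a RefSeq table of build GRCm38.p6, each running from 250 bases before the annotated start site to 50 after it. The 5 printed here belong to the members compared most closely in the results: Fos and the 3 members with the highest correlations with it from array to array, Fosb, Dusp1 and Jun, and beside them Junb, whose correlation with Fos was near 0. They are written 5′ to 3′ on the gene's own strand. Capitals mark the core of the cAMP response element (TGACG on either strand), the longer element TGACNTCA, the EGR element GCGNGGGCG and the letters TATAAA of the TATA box, where these letters occur.
Fos (chr12:85473640-85473939, plus strand): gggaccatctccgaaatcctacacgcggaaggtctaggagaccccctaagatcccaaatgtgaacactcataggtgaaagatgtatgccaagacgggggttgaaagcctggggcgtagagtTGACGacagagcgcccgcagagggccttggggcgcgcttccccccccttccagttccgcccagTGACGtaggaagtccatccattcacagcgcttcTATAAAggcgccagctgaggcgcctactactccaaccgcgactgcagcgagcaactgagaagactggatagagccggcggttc
Fosb (chr7:19309996-19310295, minus strand): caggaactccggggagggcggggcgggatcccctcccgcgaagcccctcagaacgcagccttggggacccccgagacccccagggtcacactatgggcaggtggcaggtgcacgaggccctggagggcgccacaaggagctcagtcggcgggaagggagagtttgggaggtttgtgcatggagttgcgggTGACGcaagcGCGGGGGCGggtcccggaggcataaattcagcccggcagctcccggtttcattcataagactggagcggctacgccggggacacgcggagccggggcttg
Jun (chr4:95052173-95052472, minus strand): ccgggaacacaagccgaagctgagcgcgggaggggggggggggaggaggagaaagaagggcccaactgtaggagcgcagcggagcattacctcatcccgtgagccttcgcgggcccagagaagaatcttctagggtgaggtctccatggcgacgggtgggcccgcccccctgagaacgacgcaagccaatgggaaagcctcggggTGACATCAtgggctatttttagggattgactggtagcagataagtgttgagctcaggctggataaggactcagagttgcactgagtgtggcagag
Dusp1 (chr17:26508423-26508722, minus strand): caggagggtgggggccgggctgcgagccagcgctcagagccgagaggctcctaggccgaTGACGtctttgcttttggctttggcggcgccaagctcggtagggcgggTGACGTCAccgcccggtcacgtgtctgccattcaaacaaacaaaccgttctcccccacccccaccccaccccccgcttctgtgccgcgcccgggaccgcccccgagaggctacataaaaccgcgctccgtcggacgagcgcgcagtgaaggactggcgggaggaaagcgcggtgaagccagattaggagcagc
Junb (chr8:84978699-84978998, minus strand): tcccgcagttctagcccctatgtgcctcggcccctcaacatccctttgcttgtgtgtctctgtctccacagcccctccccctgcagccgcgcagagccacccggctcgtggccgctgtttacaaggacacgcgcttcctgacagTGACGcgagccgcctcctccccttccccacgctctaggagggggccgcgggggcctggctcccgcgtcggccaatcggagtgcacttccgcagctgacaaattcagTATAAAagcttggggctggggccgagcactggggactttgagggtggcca

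The TGACG core, which transcription factors of the CREB and ATF families bind, lay in 5 of the 7 member windows: Fos, Fosb, Junb, Dusp1 and Nr4a1. Of all 32851 promoter windows of the same length, 20.8% held it on either strand. In Fos it began at -129 and at -66, counted from the start site, and in Nr4a1 it occurred 4 times. Dusp1 alone of the 7 held the full element TGACGTCA, which contains the core, at -143, against 1.79% of all windows. TGACNTCA, which includes that full element, lay in Jun as TGACATCA at -45 and in Dusp1, against 8.83% of all windows. The EGR element GCGNGGGCG lay in Fosb and Nr4a1, against 5.55% of all windows. TATAAA lay in Fos, where it began at -33, and in Junb, where it began at the annotated start site itself (position 1), against 13.6% of all windows. The AP-1 element TGANTCA (7.81% of all windows) and the CArG box bound by serum response factor (1.63%) had 0 matches in the 7 windows. A match shows only that these letters stand in the window. A missing match holds only for the windows searched, as sequence farther from the start site was not examined. No window was found for Egr1 or Ier2. Whether these genes hold AP-1 elements or CArG boxes elsewhere was therefore not tested.

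Pcyt1a had log2 intensities of 7.58, 7.47, 7.58, 7.24 and 7.66 in knockouts 1 to 5, against 9.14, 9.27, 8.95, 9.23 and 9.51 in controls 1 to 5. Every knockout lay below every control, at a difference of -1.71 (SE 0.11, limma adjusted p = 6.51e-05). Which exons its probe set covers is not given in the sources used here. Markers of absorptive epithelium were bright in all arrays, with mean log2 intensities of 12.38 for Vil1 (villin), 13.54 for Fabp2 (intestinal fatty acid binding protein) and 11.90 for Epcam, against array medians of 5.52 to 5.59 over all probe sets. The summed intensity of all 12 epithelial markers was 87060 to 96115 in knockouts and 89950 to 99068 in controls. Of the 12, 0 passed the test, 8 had lower and 4 higher knockout means, and the median difference was -0.02. Lct had the smallest p of the list. All its knockout values lay below all its control values, at a difference of -0.72 (SE 0.15, limma adjusted p = 0.0640). The piece also held muscle. The 8 smooth muscle markers summed to 908.1 to 1308 in knockouts and 898.3 to 2660 in controls, where control 4 held the highest value. In RNA from a whole piece of tissue, fewer cells of a type and less RNA per cell cannot be told apart.

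None of the 9 immediate early genes differed between knockout and control at a limma adjusted p under 0.05, where 0.343% of all 22180 genes were called (76 genes, with 11 without knockout 2 and 268 without knockout 1). At an unadjusted p under 0.05 the count was 1 of 9, Fosb, against 12.1% of all genes. In 0 of 9 did all knockouts lie on 1 side of all controls, against 2.77% of all genes. The group means differed by at least 0.5 on the log2 scale in 2 of 9, Fosb and Dusp1, both with lower knockout means, against 3.49% of all genes. Knockout means were lower in 6 members and higher in 3. The median difference was -0.11 over the 9 members and -3.54e-04 over all genes, and the median size of the difference without its sign was 0.24 for the members and 0.10 for all genes. With no p past the threshold these values do not show that the groups are alike: each 95% interval below gives the differences the data leave possible.

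**Figure D1:**
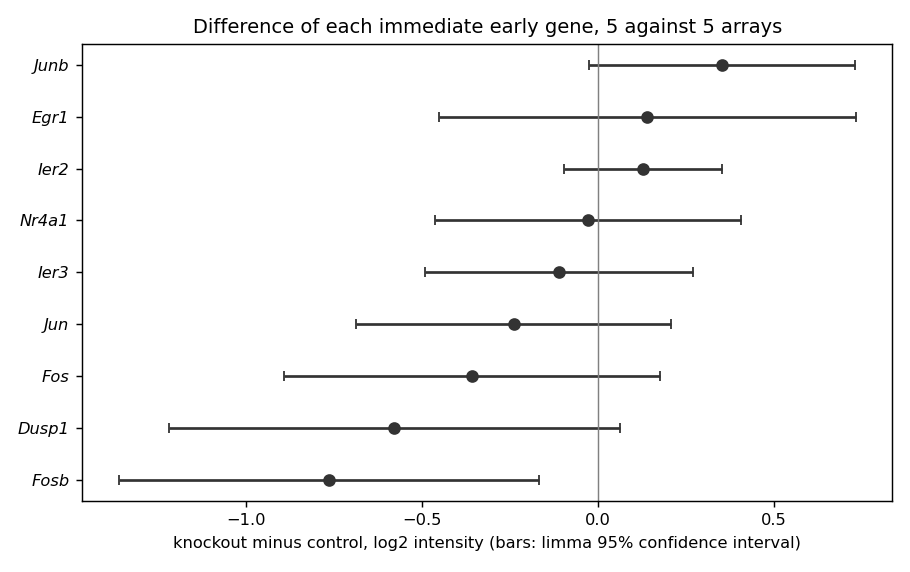
Difference of each immediate early gene, knockout minus control, in log2 intensity (horizontal axis), with its limma 95% confidence interval, for 5 against 5 arrays. The points run from -0.77 for Fosb to 0.35 for Junb, and only the Fosb interval leaves out 0.

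Fos, the founding member of the AP-1 Fos subunits, had log2 intensities of 9.56, 9.96, 9.43, 8.55 and 8.99 in knockouts 1 to 5, against 9.82, 9.30, 9.26, 10.12 and 9.78 in controls 1 to 5. The groups overlapped, with knockouts 4 and 5 below all controls and knockout 2 above 4 of 5 controls. The means were 9.30 ± 0.54 in knockout and 9.66 ± 0.37 in control (SD, n = 5 each). The difference of -0.36 (SE 0.25, 95% interval -0.89 to 0.17, limma adjusted p = 0.614) corresponds to 0.780 times the control level, with an interval of 0.539 to 1.13. Without knockout 4 it was -0.17, and without knockout 2 it was -0.52.

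Fosb, a second Fos subunit, had the lowest unadjusted p of the 9. Its log2 intensities were 6.29, 7.17, 5.97, 5.65 and 5.85 in knockouts 1 to 5, against 7.50, 6.97, 6.49, 7.24 and 6.55 in controls 1 to 5. Knockouts 1, 3, 4 and 5 lay below all controls, while knockout 2 lay above controls 2, 3 and 5. Means were 6.19 ± 0.60 in knockout and 6.95 ± 0.44 in control (SD, n = 5 each). The difference of -0.77 (SE 0.27, 95% interval -1.36 to -0.17) is 0.588 times the control level and did not pass over all genes (limma adjusted p = 0.293, unadjusted p = 0.0161). An exact permutation of the group labels (two-sided) gave p = 0.0476, not adjusted for the 9 genes examined. Under 21 alternative settings, some of which cannot change its size, the difference kept its sign. It lay between -1.01 (without knockout 2) and -0.63 (without control 1), with limma adjusted p of 0.147 to 0.501.

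Jun, the Jun subunit that gave the family its name, had log2 intensities of 9.37, 9.42, 9.03, 8.60 and 9.40 in knockouts 1 to 5, against 9.40, 9.45, 8.91, 10.03 and 9.22 in controls 1 to 5. Knockout 4 was the lowest and control 4 the highest of the 10 arrays, and the other 8 lay between 8.91 and 9.45. Means were 9.16 ± 0.35 in knockout and 9.40 ± 0.41 in control (SD, n = 5 each), a difference of -0.24 (SE 0.21, 95% interval -0.69 to 0.21, limma adjusted p = 0.709). Without control 4, the array with the highest muscle markers, it was -0.08. With the mean of the epithelial markers as a covariate its sign turned, to 0.08.

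Junb, a Jun subunit that can hold back the activity of Jun, stood on the other side. Its log2 intensities were 8.37, 8.72, 8.69, 8.75 and 9.18 in knockouts 1 to 5, against 8.17, 8.53, 8.02, 8.90 and 8.34 in controls 1 to 5. Knockouts 2, 3 and 4 lay above all controls except control 4, knockout 5 lay above all 5, and knockout 1 lay inside the control range. Means were 8.74 ± 0.29 in knockout and 8.39 ± 0.34 in control (SD, n = 5 each). The difference of 0.35 (SE 0.17, 95% interval -0.03 to 0.73) is 1.28 times the control level and did not pass (limma adjusted p = 0.452, unadjusted p = 0.0650, two-sided exact permutation p = 0.103). Without control 4 it was 0.48 (limma adjusted p = 0.280). Whether the difference of Junb differs from that of Fosb was not tested.

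**Figure D2:**
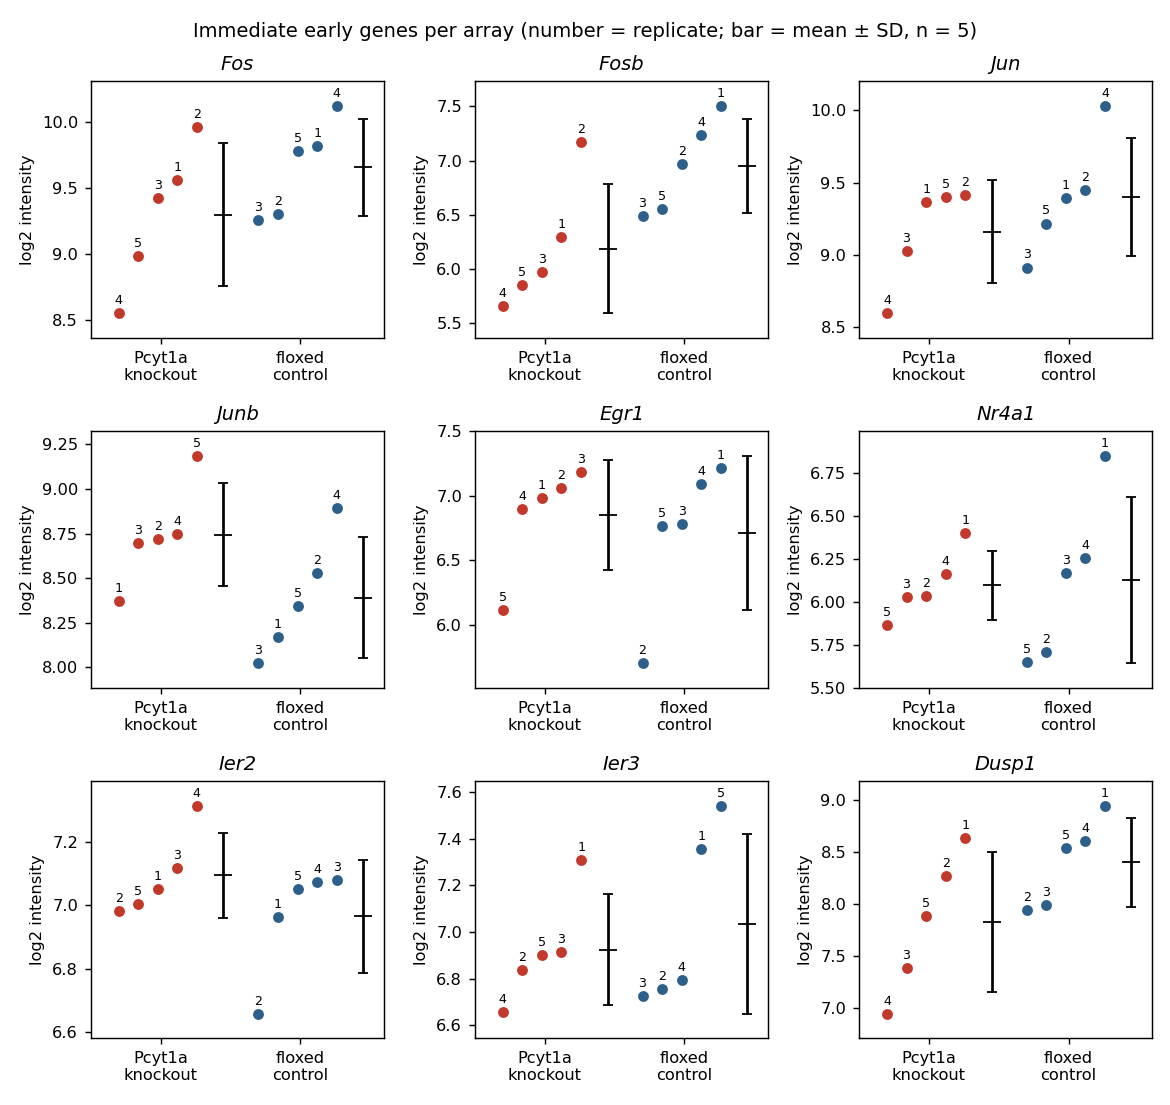
Log2 intensity (vertical axes) of each immediate early gene in the 5 Pcyt1a knockout arrays (left, red) and the 5 floxed control arrays (right, blue), drawn from low to high within a group, with the replicate number above each point and the mean ± SD beside them. The groups overlap in all 9 panels, and for Fosb 4 knockouts lie below all controls.

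Egr1 had log2 intensities of 6.99, 7.07, 7.19, 6.90 and 6.11 in knockouts 1 to 5, against 7.22, 5.70, 6.78, 7.09 and 6.77 in controls 1 to 5. In each group 1 array stood far below the other 4: knockout 5, at 6.11, and control 2, at 5.70, which was also the lowest of all. Means were 6.85 ± 0.43 in knockout and 6.71 ± 0.60 in control (SD, n = 5 each), a difference of 0.14 (SE 0.27, 95% interval -0.45 to 0.73, limma adjusted p = 0.892). Without control 2 the sign turned, at -0.11, and it was also -0.11 with the epithelial covariate. Without knockout 5 and with control 2 kept, it was 0.32.

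Nr4a1 had log2 intensities of 6.40, 6.03, 6.02, 6.16 and 5.86 in knockouts 1 to 5, against 6.85, 5.71, 6.17, 6.25 and 5.65 in controls 1 to 5. The control values spread more widely than the knockout values, and the knockouts lay inside the control range. Means were 6.10 ± 0.20 in knockout and 6.13 ± 0.48 in control (SD, n = 5 each), a difference of -0.03 (SE 0.20, 95% interval -0.46 to 0.41, limma adjusted p = 0.975). The sign turned without control 1 (0.15), without knockout 5 (0.03) and without control 4 (0.00274).

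Dusp1, the MAP kinase phosphatase, had log2 intensities of 8.64, 8.27, 7.39, 6.95 and 7.89 in knockouts 1 to 5, against 8.94, 7.95, 7.99, 8.61 and 8.54 in controls 1 to 5. Knockouts 3, 4 and 5 lay below all controls, and knockout 1 above 4 of 5 controls. Means were 7.83 ± 0.67 in knockout and 8.40 ± 0.43 in control (SD, n = 5 each). The difference of -0.58 (SE 0.30, 95% interval -1.22 to 0.06) is 0.670 times the control level and did not pass (limma adjusted p = 0.470, unadjusted p = 0.0730, two-sided exact permutation p = 0.151). It was -0.36 without knockout 4 and -0.78 without knockout 1.

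Ier3 had log2 intensities of 7.31, 6.84, 6.91, 6.66 and 6.90 in knockouts 1 to 5, against 7.36, 6.75, 6.72, 6.80 and 7.54 in controls 1 to 5. Knockout 1 and controls 1 and 5 stood above the other 7 arrays, which lay between 6.66 and 6.91. Means were 6.92 ± 0.24 in knockout and 7.03 ± 0.38 in control (SD, n = 5 each). Its difference was -0.11 (SE 0.18, 95% interval -0.49 to 0.27, limma adjusted p = 0.859), and without control 5 it was 0.01. Ier2 was the steadiest of the 9, with log2 intensities of 7.05, 6.98, 7.12, 7.31 and 7.01 in knockouts 1 to 5, against 6.96, 6.66, 7.08, 7.07 and 7.05 in controls 1 to 5. Knockout 4 was the highest and control 2 the lowest, and the other 8 arrays lay between 6.96 and 7.12. Means were 7.09 ± 0.13 in knockout and 6.97 ± 0.18 in control (SD, n = 5 each). The difference was 0.13 (SE 0.10, 95% interval -0.10 to 0.35, limma adjusted p = 0.688), the narrowest interval of the 9.

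Arrays of the same group differed widely in these genes. The SD within groups, pooled over knockout and control, was 0.56 for Dusp1, 0.52 for both Fosb and Egr1, 0.46 for Fos, 0.38 for Jun, 0.37 for Nr4a1, 0.32 for both Ier3 and Junb and 0.16 for Ier2, in log2 units. The median over all genes tested was 0.18. Of all genes tested, 98.5% had a smaller SD than Dusp1, 98.0% than Fosb, 97.9% than Egr1 and 96.8% than Fos. For Jun, Nr4a1, Ier3 and Junb the share was 93.4%, 92.7%, 88.1% and 87.6%, and for Ier2 it was 35.9%. Thus 6 of 9 members were in the most variable 10% of genes. Some marker lists stood as high: the median of this share was 98.4% over the smooth muscle list and 98.2% over the lymphocyte list, against 15.2% over the epithelial list. Among lists counted further below, it was 66.2% for other early transcription factors, 77.3% for other early response genes and 64.0% for feedback inhibitors. It was 87.8% for heat shock genes and 94.8% for fasting and feeding genes.

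**Figure D3:**
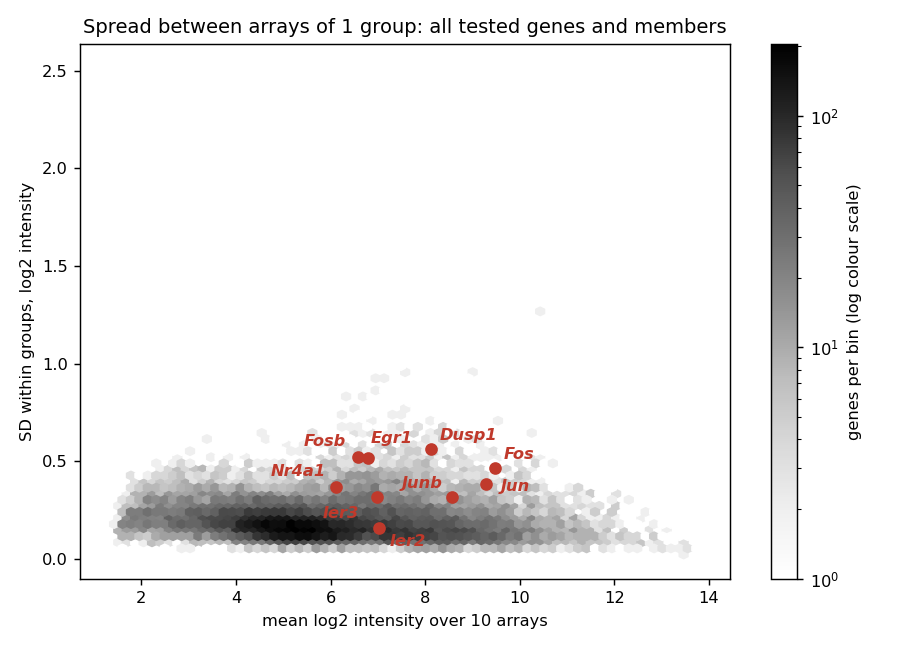
SD within groups (vertical axis, log2 intensity) against mean log2 intensity over the 10 arrays (horizontal axis) for all 22180 genes (grey bins, log colour scale), with the 9 immediate early genes in red. Dusp1, Fosb, Egr1 and Fos lie at SDs of 0.46 to 0.56, where the median of all genes is 0.18, and Ier2 lies at 0.16.

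Some arrays were high or low for several members. Knockout 4 was the lowest of all 10 arrays for 5 of 9 members (Fos, Fosb, Jun, Ier3 and Dusp1) and the highest for 1 (Ier2). Control 1 was the highest for 4 members (Fosb, Egr1, Nr4a1 and Dusp1) and control 4 for 2 (Fos and Jun). The mean deviation of the 9 members from their gene means was 0.12, 0.17, -0.13, -0.38 and -0.19 in knockouts 1 to 5 and 0.37, -0.21, -0.16, 0.36 and 0.06 in controls 1 to 5. High and low arrays occurred in both groups.

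**Figure D4:**
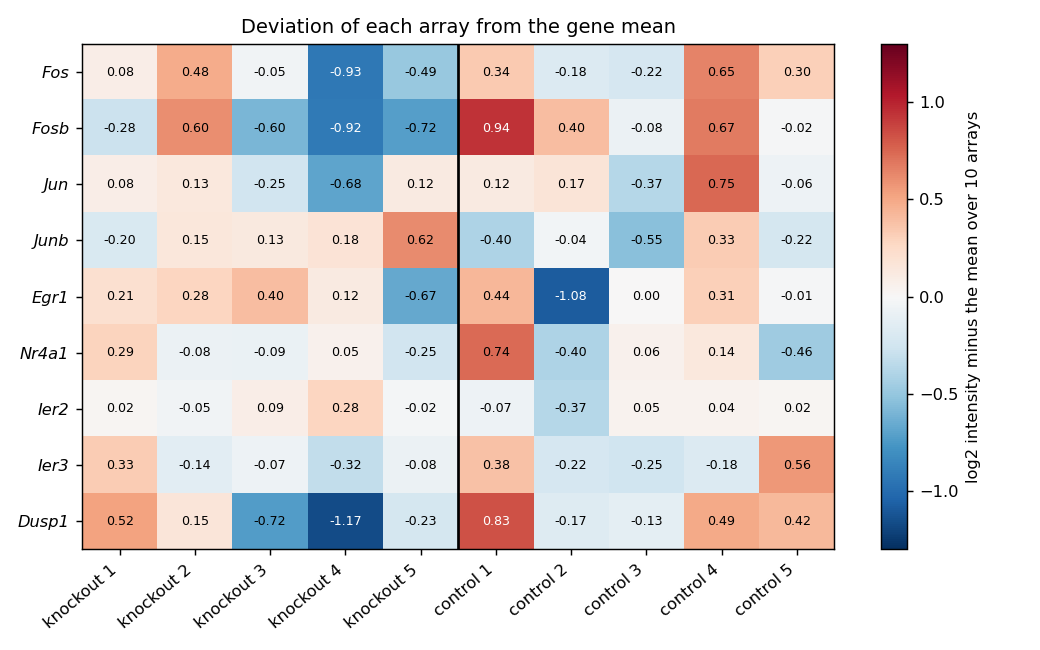
Deviation of each array (columns, knockouts left, controls right) from the mean of each gene over the 10 arrays (rows), in log2 intensity, red above and blue below that mean. Knockout 4 is low for Fos, Fosb, Jun and Dusp1 (-0.93, -0.92, -0.68 and -1.17), and controls 1 and 4 are above the mean for all 4.

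Marker lists of other cells moved in some of the same arrays. The smooth muscle list had mean deviations of -0.33 to 0.20 in knockouts and -0.38 to -0.05 in controls 1, 2, 3 and 5, and 1.04 in control 4. The fibroblast list ran from -0.10 to 0.58 in knockouts and from -0.85 (control 5) to 0.15 in controls, with 0 of 7 markers past the test and higher knockout means in all 7. Its summed intensity was 1161 to 1990.2 in knockouts and 689 to 1505 in controls. Knockout 4 had the lowest epithelial mean, -0.14, with the other 9 arrays between -0.06 and 0.09. Lymphocyte markers (0 of 7 past the test) ran from -0.31 to 0.26 in knockouts and from -0.66 to 0.58 in controls, with sums of 1262 to 2379 in knockouts and 963 to 2666 in controls. Macrophage and granulocyte markers (0 of 8) ran from -0.20 to 0.20 in knockouts and from -0.55 to 0.21 in controls, with sums of 655 to 929 in knockouts and 435 to 1021 in controls. Endothelial markers (0 of 7) ran from -0.10 to 0.29 in knockouts and from -0.28 to 0.17 in controls, and markers of neurons and glia (0 of 6) from -0.09 to 0.01 in knockouts and from -0.05 to 0.13 in controls. Markers of pancreas and fat (0 of 6) ran from -0.06 to 0.02 in knockouts and from -0.08 to 0.06 in controls. At an unadjusted limma p under 0.05, which 12.1% of all genes passed, stood 3 of 7 fibroblast and 2 of 7 lymphocyte markers. Counts were 1 of 8 for macrophages and granulocytes, 1 of 7 for endothelium, 2 of 6 for pancreas and fat and 1 of 12 for epithelium. They were 0 for smooth muscle and for neurons and glia. The lymphocyte list pools T and B cell genes, with 5 lower and 2 higher knockout means. With the mean of the muscle and fibroblast markers as a covariate, the differences were -0.43 for Fos, -0.84 for Fosb, -0.37 for Jun, 0.27 for Junb and -0.66 for Dusp1. With the epithelial mean as a covariate they were -0.16, -0.68, 0.08, 0.57 and -0.37 in that order of genes, and 0 of 9 members passed under either. The epithelial mean includes Lct, at a difference of -0.72 with every knockout below every control. That covariate may therefore hold part of the group difference itself. So may the muscle and fibroblast covariate, as all 7 fibroblast markers had higher knockout means.

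Members were then compared in how they varied once group means were removed. Over the 10 arrays Fos correlated with Fosb (Pearson r = 0.775, exact permutation p = 0.0200; Spearman rho = 0.879, exact permutation p = 0.00424). It also correlated with Dusp1 (r = 0.770, exact permutation p = 0.0251; rho = 0.806, exact permutation p = 0.0140) and with Jun (r = 0.704, exact permutation p = 0.0283; rho = 0.758, exact permutation p = 0.0219). The permutations exchanged arrays within each group and were two-sided. Of the 36 pairs, 26 had positive and 10 negative r, 5 had an unadjusted p under 0.05 for r and 6 for rho, and 0 passed after Benjamini-Hochberg adjustment over the pairs (exact permutation, lowest adjusted p 0.265 for r and 0.153 for rho). Without knockouts 2 and 4, the arrays farthest from the median of Fos, the r of Fos was 0.565 with Fosb, 0.621 with Dusp1 and 0.541 with Jun. Jun with Dusp1 (r = 0.652, rho = 0.552) and Ier3 with Dusp1 (r = 0.666, rho = 0.600) were the other 2 pairs under 0.05 for r (exact permutation p = 0.0489 and 0.0294; for rho 0.129 and 0.0624; adjusted p for r 0.352 and 0.265). The r was 0.581 for the first without knockout 4 and control 4, and 0.641 for the second without knockout 1 and control 5.

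For rho alone, 3 more pairs were under 0.05: Fosb with Jun (rho = 0.770, exact permutation p = 0.0181; r = 0.624, p = 0.0703), Fos with Egr1 (rho = 0.709, exact permutation p = 0.0303; r = 0.524, p = 0.128) and Fosb with Dusp1 (rho = 0.709, exact permutation p = 0.0402; r = 0.655, p = 0.0644). Their adjusted p for rho were 0.197, 0.218 and 0.241 (exact permutation). Junb had an r of 0.03 with Fos (exact permutation p = 0.945) and of 0.01 with Fosb (exact permutation p = 0.985). Egr1 and Ier2 had an r of 0.644 and a rho of 0.188 (exact permutation p = 0.124 and 0.628, adjusted 0.418 and 0.779), and without knockout 5 and control 2 the r was -0.35, so the value rested on those arrays. All members of an array share its RNA, its hybridization and the cell content of the piece.

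**Figure D5:**
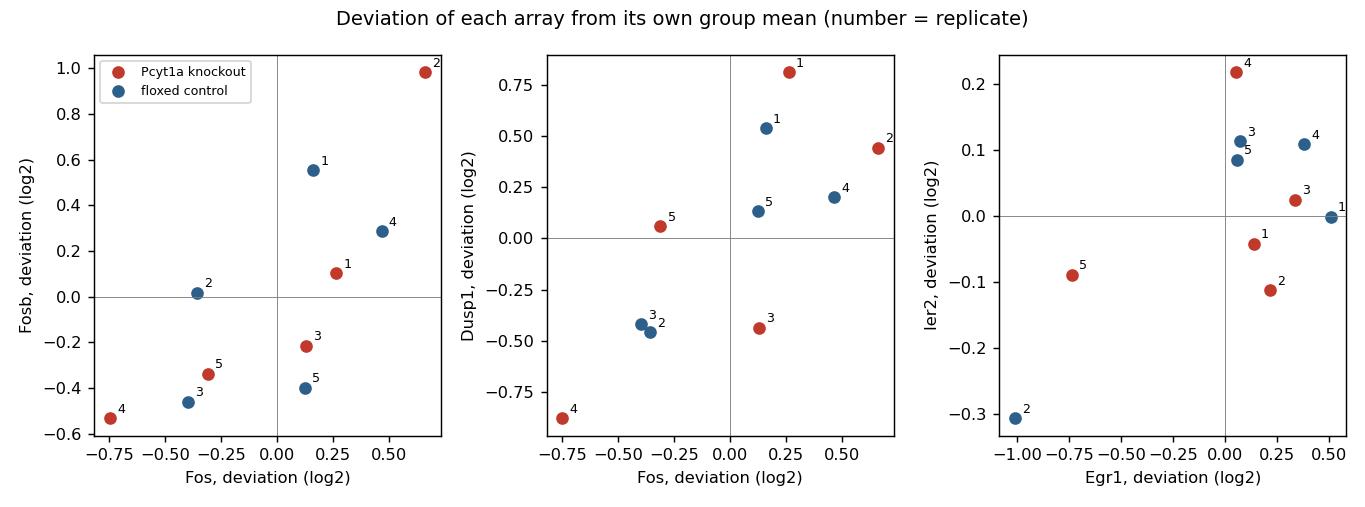
Deviation of each array from its own group mean, in log2 intensity, for Fosb against Fos, Dusp1 against Fos, and Ier2 against Egr1 (replicate numbers beside the points, Pcyt1a knockouts red, floxed controls blue). Knockout 4 lies lowest and knockout 2 highest on the Fos axis, and in the right panel knockout 5 and control 2 stand apart on the Egr1 axis.

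Outside the 9, the gene most like their mean was Hbegf, an EGF-family growth factor that is itself induced early (r = 0.976 over the 10 arrays, group means removed, among 9705 candidate genes). Its log2 intensities were 8.55, 8.64, 8.24, 7.73 and 8.17 in knockouts 1 to 5, against 9.35, 8.41, 8.18, 9.35 and 8.75 in controls 1 to 5. Knockout 4 was the lowest and controls 1 and 4 were the highest. Next came Atf3, a stress-induced transcription factor that can dimerize with Jun proteins (r = 0.883), R3hdm2 (0.874), Cd244a, a receptor of lymphocytes (0.863), and Gnao1, a G protein subunit (0.863). For Fos alone the highest r were those of Hbegf (0.871), Pck1, the gluconeogenic enzyme phosphoenolpyruvate carboxykinase (0.862), Smim8 (0.852), Gpc4, a glypican (0.833), and Pnpla7, a lysophospholipase (0.820). These values of r are descriptions, taken as the highest of many candidates over 10 arrays, and none of the genes named for their likeness was called between the groups.

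Other genes of the early response were counted from lists. Of 19 other early transcription factors measured, 1 was called lower, 0 higher and 18 did not pass, with a median difference of -0.06. Over all genes the share called was 0.171% in each direction. The called gene was Per1, a clock gene that is also induced early by cAMP signalling. Its log2 intensities were 8.47, 8.53, 8.34, 7.98 and 8.34 in knockouts 1 to 5, against 8.91, 8.96, 9.23, 9.04 and 8.89 in controls 1 to 5. All knockouts lay below all controls, at a difference of -0.68 (SE 0.11, limma adjusted p = 0.0289). The call ended under 11 of 21 alternatives, among them the omission of any single array other than knockout 1, while the difference stayed between -0.74 and -0.59 and the limma adjusted p between 0.0200 and 0.138. Jund, the third Jun subunit, was at 0.30 (SE 0.13, adjusted p = 0.362) and Myc at 0.52 (SE 0.25, adjusted p = 0.425).

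Of 11 bZIP partners of AP-1, 1 was called higher (against 0.171% of all genes), 0 lower and 10 did not pass. This was Batf2, a partner of Jun proteins that interferons induce. Its log2 intensities were 7.46, 7.79, 7.74, 7.70 and 8.20 in knockouts 1 to 5, against 7.07, 7.11, 6.83, 7.22 and 6.84 in controls 1 to 5. All knockouts lay above all controls, at a difference of 0.77 (SE 0.13, limma adjusted p = 0.0315). The call ended under 11 of 21 alternatives, among them quantile normalization and the omission of any single array other than knockouts 1 and 5, while the difference stayed between 0.66 and 0.91 and the limma adjusted p between 0.0116 and 0.101. Mafk (-0.35, SE 0.12, adjusted p = 0.283) and Atf7 (-0.24, SE 0.09, adjusted p = 0.341) followed by p.

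Of 24 other early response genes 0 passed (median difference -0.05, limma), with 6 at an unadjusted p under 0.05, a threshold that 12.1% of all genes passed. The 3 with the smallest p were Plk2, a polo-like kinase (-0.29, SE 0.09, adjusted p = 0.237), Btg2, an antiproliferative factor (-0.47, SE 0.18, adjusted p = 0.315), and Ereg, the EGF-family ligand epiregulin (1.02, SE 0.39, adjusted p = 0.321). Of 23 feedback inhibitors 0 passed (median -0.00446), with 6 at an unadjusted p under 0.05. Socs3, an inhibitor of cytokine signalling, was at 0.54 (SE 0.16, adjusted p = 0.180), Nab1, a corepressor of EGR proteins, at 0.24 (SE 0.08, adjusted p = 0.275) and Rgs2, a regulator of G protein signalling, at -0.46 (SE 0.16, adjusted p = 0.288). Of 21 upstream kinases and factors 0 passed (median -0.06), with 2 at an unadjusted p under 0.05. Egfr, the EGF receptor, was at -0.31 (SE 0.09, adjusted p = 0.161), Mapk14, the kinase p38 alpha, at -0.18 (SE 0.08, adjusted p = 0.385) and Elk4, a partner of serum response factor, at -0.20 (SE 0.10, adjusted p = 0.443). In Plk2, Socs3, Nab1 and Egfr, named here for their small p, all knockouts lay on 1 side of all controls (2.77% of all genes).

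Heat shock genes, which heat and tissue stress induce, were counted beside them. Of 11 measured, 0 passed, 8 had higher knockout means and the median difference was 0.24, with 1 at an unadjusted p under 0.05 (12.1% of all genes). Hspa1b, an inducible heat shock protein of the 70-kilodalton class, had log2 intensities of 10.58, 10.81, 10.20, 11.02 and 10.89 in knockouts 1 to 5, against 11.07, 10.38, 10.67, 7.87 and 8.89 in controls 1 to 5. Controls 4 and 5 stood below the other 8 arrays, and its difference was 0.92 (SE 0.50, adjusted p = 0.509). Hspb1, a small heat shock protein, was at 0.74 (SE 0.20, adjusted p = 0.155), and Hspe1 at 0.26 (SE 0.13, adjusted p = 0.443). The mean of the list was highest in knockout 4, at 0.28, and lowest in control 4, at -0.62.

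Genes that respond to fasting and genes that respond to feeding were counted in the same way, pooled in a single list. Its median and mean therefore give no fed or fasted direction. Of 16 measured, 0 passed, 10 had lower knockout means and the median difference was -0.22, with 4 at an unadjusted p under 0.05 (12.1% of all genes). Pdk4, a kinase that fasting induces and that holds back pyruvate oxidation, had log2 intensities of 9.83, 7.17, 8.58, 7.15 and 8.51 in knockouts 1 to 5, against 9.76, 9.69, 9.69, 9.75 and 10.09 in controls 1 to 5. Knockouts 2 to 5 lay below all controls and knockout 1 above 4 of 5 of them, and the difference was -1.55 (SE 0.42, limma adjusted p = 0.146). Srebf1, the lipogenic transcription factor, had the smallest p of the list and was at -0.93 (SE 0.23, limma adjusted p = 0.116). All its knockouts lay below all its controls, with the highest knockout at 8.82 and the lowest control at 8.84. Cpt1a, of mitochondrial fatty acid uptake, was at -0.52 (SE 0.21, limma adjusted p = 0.351). Knockout 4, low in Fos, Fosb, Jun and Dusp1, also had the lowest mean of this list, -0.37. The next lowest was knockout 2, at -0.31, and it had the highest mean deviation of the 9 members among the knockouts, 0.17. Knockouts 1, 2, 3 and 5 had means of -0.31 to 0.32, and controls of -0.04 to 0.43. The part of feeding, handling and cell content in the spread of the immediate early genes was not tested.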

How the data were processed

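RNA of 5 knockout and 5 control jejunum samples was measured on Affymetrix arrays. Trizol and RNeasy columns were used for extraction, and the WT Plus kit labelled 400 ng of RNA (per the labels' protocols). The submitters' processing notes name Affymetrix Expression Console 1.4.1.46 and RMA. The authors deposited linear intensities, and their log2 was taken first. RMA makes arrays alike in distribution, so a change common to most genes would be hidden. The build behind the probe sets is not given in the sources used here.

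GEO's platform annotation gave the gene symbols. Of 41345 probe sets, 23521 had 1 symbol, 1814 several and 16010 none, and only the first kind was used. Per gene the probe set with the highest mean over the 10 arrays was taken, which gave 22180 genes. The comparison used limma 3.58.1 in R 4.3.3 (lmFit and eBayes, group as the only term), with Benjamini-Hochberg adjustment over all genes and a threshold of 0.05. Single members also had a two-sided exact permutation test of the group labels, with a smallest possible p of 0.00794. No detection calls were used. Precision depends on the number of arrays.

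The members and lists were chosen with earlier results of these data known. The text names Pcyt1a, all 9 members, from each other early-gene, heat shock and feeding list the called genes and the 3 with the smallest p, and the 5 genes most like the members' mean and most like Fos by Pearson r among genes with a mean log2 intensity of at least 6. Marker lists are given as list values, apart from 3 epithelial genes named to check the tissue. Lct was also named, as the epithelial marker with the smallest p. Replicate numbers are shared by the groups but no label says that they pair samples. Deviations of same-numbered arrays over all genes correlated by -0.13 to 0.12. Such values cannot settle whether the samples were paired, so a replicate block was run as an alternative. Alternatives were other normalizations, filters, weights, a replicate block, marker covariates, a threshold of 0.1 and the omission of single arrays.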

Additional observations from a re-analysis of the deposited data

Results flagged for a closer look

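Log2 intensities of the 9 members and Pcyt1a were examined in each group for a single array far from the other 4, 20 sets of 5 in all, of which chance marks about 1 in 20. An array was marked where its gap to the nearest one exceeded 0.71 of the range of its group, which held in 2 sets. Egr1 in knockout 5 was at 6.11, against 6.90 in the nearest knockout. Ier2 in control 2 was at 6.66, against 6.96 in the nearest control. Egr1 in control 2, at 5.70 against 6.77 in the nearest control, was not marked by this rule.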

How the results depend on the processing

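No immediate early gene passed under any of the 21 alternatives run, and the median difference of the 9 members stayed between -0.22 and -0.03. Fos, Fosb, Dusp1, Junb and Ier2 kept their signs under all 21. Some of the 21 cannot move a member's difference, so a kept sign there carries no information. These were the threshold of 0.1, dim genes left out, mean of probe sets, trend and robust options, and the replicate block. With the epithelial covariate, which may hold part of the group difference itself, Jun was at 0.0829 and Egr1 at -0.113. With 1 array left out, Egr1 ran from -0.114 (without control 2) to 0.32, Ier3 from -0.21 to 0.0149 (without control 5) and Nr4a1 from -0.15 to 0.152 (without control 1), with 0.0294 without knockout 5 and 0.00274 without control 4. The causes were not tested. The count over all genes moved far more. It was 142 with array weights, 27 with the replicate block (16 of them among the 76), 4 with the epithelial covariate and 261 at a threshold of 0.1. With 1 array left out it ran from 11 (without knockout 2) to 268 (without knockout 1), with fewer than 76 for each of the other arrays left out, and it was 186 without knockout 1 and control 5 together, an alternative chosen after seeing the data. Under the remaining alternatives (median shift, quantile normalization, dim genes left out, mean of probe sets, trend and robust options, muscle and fibroblast covariate) it stayed between 59 and 102.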
